A study of Homo sapiens with 5 samples.

Results

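The granule protein genes described here are MPO, ELANE, PRTN3, AZU1, CTSG, LTF, CAMP, DEFA1, LYZ and BPI. They were chosen by name and not by their contact values, although earlier results of these data were known. Each was assigned to the 500 kb bin of the hg19 genome that holds it. ELANE, PRTN3 and AZU1 share a bin, so the 10 genes lie in 8 of the 6203 bins, on 7 chromosomes. Each bin was described together with up to 5 bins on either side, which gave 76 different bins.

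Chromosome contacts were measured by Hi-C, in which neighbouring DNA ends in fixed nuclei are ligated and the ligated pairs are sequenced and counted. All libraries came from HL60, an established human promyelocytic leukemia line, and the labels separate the groups by treatment. Untreated cells had 2 libraries merged into 1 matrix, cells treated with all-trans retinoic acid (ATRA) had 1 library, and cells treated with the phorbol ester TPA had 2 libraries merged into 1 matrix. Neither the dose nor the duration of a treatment is given in the sources used here. In HL60, ATRA is known to drive granulocyte-like and TPA macrophage-like maturation, but contact maps hold no expression, so maturation could not be checked. With 1 matrix for each condition there was no spread between replicates, no p-value could be computed, and effects of library and treatment cannot be told apart. The 95% intervals given below cover counting error only, and read pairs amplified by PCR are not independent molecules.

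Neutrophil granules are made in sequence during maturation in the bone marrow. Primary (azurophil) granules form at the promyelocyte stage and carry myeloperoxidase, serine proteases and defensins, whereas secondary (specific) granules form later and carry lactoferrin and the cathelicidin precursor. HL60 cells are arrested near the promyelocyte stage, when primary granule genes are normally active. In Hi-C maps, active gene-rich chromatin (compartment A) tends to contact other A chromatin, and inactive chromatin (compartment B) other B chromatin.

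The primary granule genes were spread over 5 of the bins. MPO, which encodes the heme enzyme that makes hypochlorous acid, lies at 56.0 to 56.5 Mb of chromosome 17, near the peroxidase genes EPX and LPO in the GRCh38.p14 gene order of RefSeq. AZU1, PRTN3 and ELANE encode azurocidin, proteinase 3 and neutrophil elastase, and stand next to each other at 0.5 to 1.0 Mb of chromosome 19, followed by CFD. CTSG, the cathepsin G gene, lies at 25.0 to 25.5 Mb of chromosome 14 between CMA1 and the granzyme genes GZMH and GZMB. DEFA1, an alpha-defensin gene, lies at 6.5 to 7.0 Mb of chromosome 8 beside its near-identical copies DEFA1B and DEFA3. BPI, which encodes the bactericidal/permeability-increasing protein that binds lipopolysaccharide, lies at 36.5 to 37.0 Mb of chromosome 20 next to its relative LBP. The secondary granule genes LTF (lactoferrin) and CAMP (cathelicidin) lie 1.5 Mb apart on chromosome 3, at 46.5 to 47.0 and 48.0 to 48.5 Mb. LYZ, the lysozyme gene, whose product is found in several granule types, lies at 69.5 to 70.0 Mb of chromosome 12. For LTF and CTSG the bin before is described as well.

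On the autosomes and chromosome X, the matrices held 10628045 contacts in untreated, 9632300 in ATRA and 10423501 in TPA cells. The median bin, among those with any contact, held 3461, 3272 and 3466 contacts. Of all contacts, 39.0% in untreated, 31.5% in ATRA and 36.3% in TPA cells stayed within a chromosome. A bin was not scored where any matrix gave it under 0.2 times the median coverage, which left 5630 bins and 74 of the 76 around the granule genes.

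Coverage, the number of contacts that a bin has with the whole genome, was lower in ATRA than in untreated cells at the elastase cluster and at both secondary granule genes. Scaled to the total of each matrix, 3 of the 8 granule bins were lower in ATRA by over 1.2-fold, beside 7.64% of all scored bins, and 0 were higher by that much, beside 2.27%. In TPA 0 of the 8 bins were lower by over 1.2-fold, beside 0.213% of all, and 0 were higher, beside 0.337%. A ratio below 1 of any size was found for 6 of 8 bins in ATRA (31.3% of all bins) and for 7 of 8 in TPA (39.7%). Summed over the 8 bins, coverage in ATRA was 0.907 times the untreated value (0.892 to 0.922) and in TPA 0.946 times (0.931 to 0.961), whereas the median of all scored bins was 1.06 and 1.02.

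**Figure D1:**
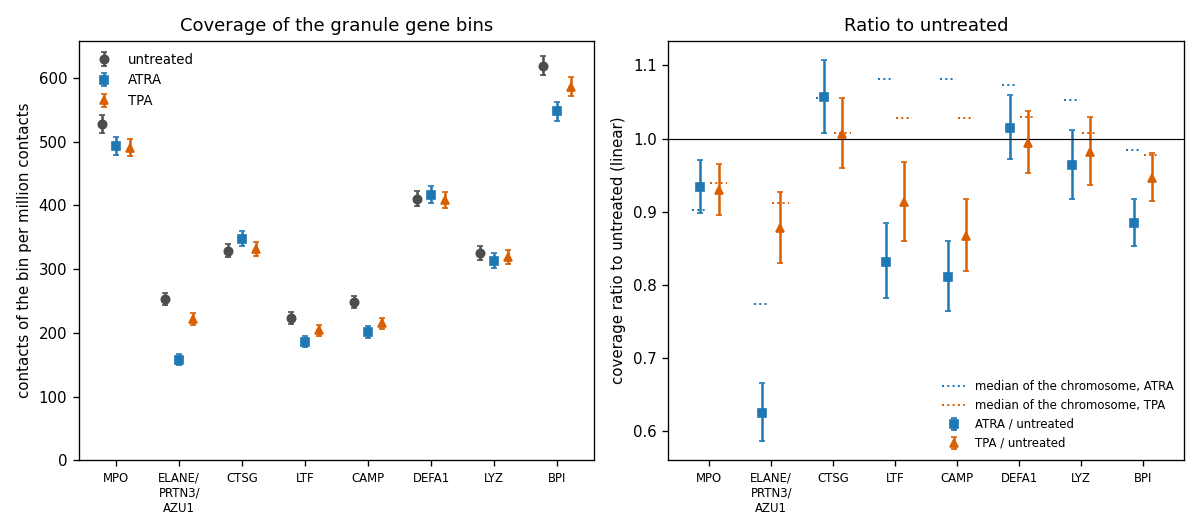
Left, contacts of each granule gene bin per 1000000 contacts of the matrix, with exact Poisson 95% intervals, for untreated (circles), ATRA (squares) and TPA (triangles) cells. Right, the ratio to untreated on a linear axis with exact 95% intervals; dotted lines mark the median ratio of the scored bins of the same chromosome. The ELANE, PRTN3 and AZU1 bin stands lowest at 0.625 in ATRA, and CAMP and LTF lie far below their chromosome's median.

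The bin of ELANE, PRTN3 and AZU1 held 2689 contacts in untreated, 1522 in ATRA and 2313 in TPA cells. Per 1000000 contacts these are 253, 158 and 222. The ATRA value is the lowest of the 3, and its interval (150.2 to 166) does not overlap the others. Relative to untreated, ATRA stood at 0.625 (0.586 to 0.665) and TPA at 0.877 (0.829 to 0.928). Much of chromosome 19 shared the lower coverage in ATRA, with a median ratio of 0.773, but only 2 of its 113 scored bins were lower than this one. Against TPA, where the chromosome's median was 0.854, the ATRA ratio of 0.712 (0.667 to 0.760) was the lowest of the 113. The other 6 bins within reach, from the chromosome end to 3.5 Mb, had ATRA ratios between 0.613 and 0.753.

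CAMP, the cathelicidin gene, lay in a bin with 2631 contacts in untreated, 1934 in ATRA and 2238 in TPA cells. Relative to untreated it stood at 0.811 (0.764 to 0.860) in ATRA and at 0.867 (0.819 to 0.918) in TPA. The LTF bin held 2373, 1788 and 2124 contacts, with ratios of 0.831 (0.781 to 0.884) and 0.913 (0.860 to 0.968). Both stood apart from their chromosome, whose median ratio was 1.08 in ATRA and 1.03 in TPA. Of the 390 scored bins of chromosome 3, 9 were lower than CAMP and 17 lower than LTF in ATRA, and 2 and 22 in TPA. The lower coverage extended along the stretch from 46.5 to 51.0 Mb, where every bin had an ATRA ratio between 0.743 and 0.853. It was less marked in the bin before LTF, at 46.0 to 46.5 Mb, with 2735, 2284 and 2603 contacts and ratios of 0.921 and 0.970.

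The remaining bins differed less. MPO held 5608, 4749 and 5113 contacts in untreated, ATRA and TPA cells, with ratios of 0.934 (0.899 to 0.971) and 0.930 (0.895 to 0.966), close to the chromosome 17 medians of 0.903 and 0.939. BPI had the highest coverage of the 8 bins, 6579, 5273 and 6109 contacts, or 1.90 times the median bin in untreated cells, and ratios of 0.884 (0.853 to 0.917) and 0.947 (0.914 to 0.980). The intervals of MPO and BPI exclude a ratio of 1 in both treated matrices.

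For LYZ the counts were 3457, 3018 and 3329, with ratios of 0.963 (0.917 to 1.01) and 0.982 (0.936 to 1.03). DEFA1 had 4364, 4014 and 4257 contacts and ratios of 1.01 (0.972 to 1.06) and 0.995 (0.953 to 1.04). CTSG was the only granule bin with a ratio above 1 in both treated matrices, 1.06 in ATRA (1.01 to 1.11) and 1.01 in TPA (0.960 to 1.06), from 3496, 3347 and 3452 contacts. The median of chromosome 14 in ATRA was also 1.06. The bin before CTSG, at 24.5 to 25.0 Mb, went the other way, with 6692, 5013 and 5890 contacts and ratios of 0.827 and 0.897.

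Which contacts were fewer differed between these bins. Contacts with other chromosomes alone were scaled to their own total in each matrix, not to all contacts as coverage was. On this scale ATRA stood at 0.654 (0.605 to 0.706) of untreated for the elastase cluster and 0.798 (0.736 to 0.864) for LTF. It stood at 0.817 (0.757 to 0.881) for CAMP and 0.858 (0.820 to 0.898) for BPI. These 4 bins thus held a smaller part of the contacts between chromosomes in ATRA. Such contacts made up a larger share of the ATRA matrix, so on the scale of all contacts each ratio would be higher. For MPO the ATRA ratio was 1.01 (0.963 to 1.06), and its lower coverage therefore lay within chromosome 17. In TPA the elastase cluster was at 1.00 (0.935 to 1.07) between chromosomes, against 0.877 for all its contacts, and so was also lower within its chromosome only.

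The compartment score places each bin on the A side (above 0) or the B side (below 0). It is the first eigenvector of the balanced, distance-corrected contact pattern of its chromosome, in standard deviations (SD) of that chromosome. Granule gene bins lay on the A side in 8 of 8 cases in untreated cells, 8 of 8 in ATRA and 7 of 8 in TPA, beside 49.4%, 45.6% and 40.4% of all scored bins. The bin below 0 in TPA was CTSG, although its percentile within chromosome 14 was 44.3 in untreated and 66.5 in TPA cells. Of all scored bins of chromosome 14, 58.0% in untreated and 31.8% in TPA cells were above 0. The placement of CTSG, DEFA1 and LYZ was weak: a score taken from contacts between chromosomes left 5, 5 and 6 of the 8 bins on the A side.

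LTF and CAMP, the secondary granule genes, had the highest scores in every matrix. LTF stood at 1.65 in untreated, 1.82 in ATRA and 1.91 in TPA cells, and CAMP at 1.63, 1.92 and 1.96. These values lie between percentiles 89.7 and 95.1 of the scored bins of chromosome 3. In contacts between chromosomes CAMP scored higher than LTF, at 3.29, 2.99 and 2.56 against 1.27, 2.05 and 1.57. The bin before LTF scored 1.94, 2.28 and 2.27 and was thus on the A side too.

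Among the primary granule genes, MPO scored 1.35, 1.52 and 1.22 in untreated, ATRA and TPA cells. The elastase cluster scored 1.15, 0.72 and 0.63, and in contacts between chromosomes 3.87, 3.15 and 3.08, which is above 99.1% of the bins of chromosome 19 in every matrix. BPI scored 0.55, 1.35 and 1.21. DEFA1 scored 0.39, 0.63 and 0.17, and on contacts between chromosomes it was on the B side at -0.39, -0.46 and -0.47. LYZ scored 0.76, 0.84 and 0.71, and between chromosomes it was close to 0 at -0.10, -0.02 and 0.15.

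CTSG could not be placed with confidence. Its scores were 0.12, 0.44 and -0.10, but the leading pattern of chromosome 14 differed between matrices: its correlation across bins with the score from contacts between chromosomes was 0.62, 0.59 and 0.87. When the eigenvector closest to that score was used instead, a choice made after seeing the data, CTSG scored -0.38, -0.91 and -0.10. Between chromosomes CTSG scored -0.40, -0.44 and -0.61, whereas the bin before it, at 24.5 to 25.0 Mb, scored 2.29, 1.83 and 1.63. By contacts between chromosomes the gene thus lies next to a step from A-like to B-like in all 3 matrices. The main score of the bin before was 0.68, -0.29 and 1.55, so by that score the step ran the other way in ATRA. Contacts between chromosomes include those with the joined places described below, whose part in the step was not tested. A 500 kb bin does not show on which side of the step CTSG falls.

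Differences of score from untreated cells were few. In ATRA 1 of the 8 bins was higher by over 0.5 SD (BPI, by 0.80), beside 10.1% of all scored bins, and 0 were lower, beside 13.7%. In TPA 1 was higher (BPI, by 0.65), beside 8.7%, and 1 was lower (the elastase cluster, at -0.52), beside 26.2%. By rank within chromosome 19 the elastase cluster hardly differed in TPA, at percentiles 69.9 in untreated, 62.8 in ATRA and 69.0 in TPA cells. Of all scored bins of chromosome 19, 58.4%, 48.7% and 45.1% were above 0. The BPI difference depended on the method. With the eigenvector computed for the chromosome arm alone BPI scored 1.21, 1.37 and 1.21, and between chromosomes 0.95, 1.14 and 0.80. Without balancing it scored -1.78, -0.85 and 1.02, on the B side in untreated and ATRA cells. With low-coverage bins left out the differences were 0.78 and 0.64. The difference at the elastase cluster also depended on the method: it was near 0 within the arm, at 0.04 in ATRA and -0.05 in TPA, but larger between chromosomes, at -0.72 and -0.79. None of the 8 bins passed from beyond 0.5 SD on the A side to beyond 0.5 SD on the B side, beside 0.497% of all scored bins in ATRA and 2.54% in TPA.

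**Figure D2:**
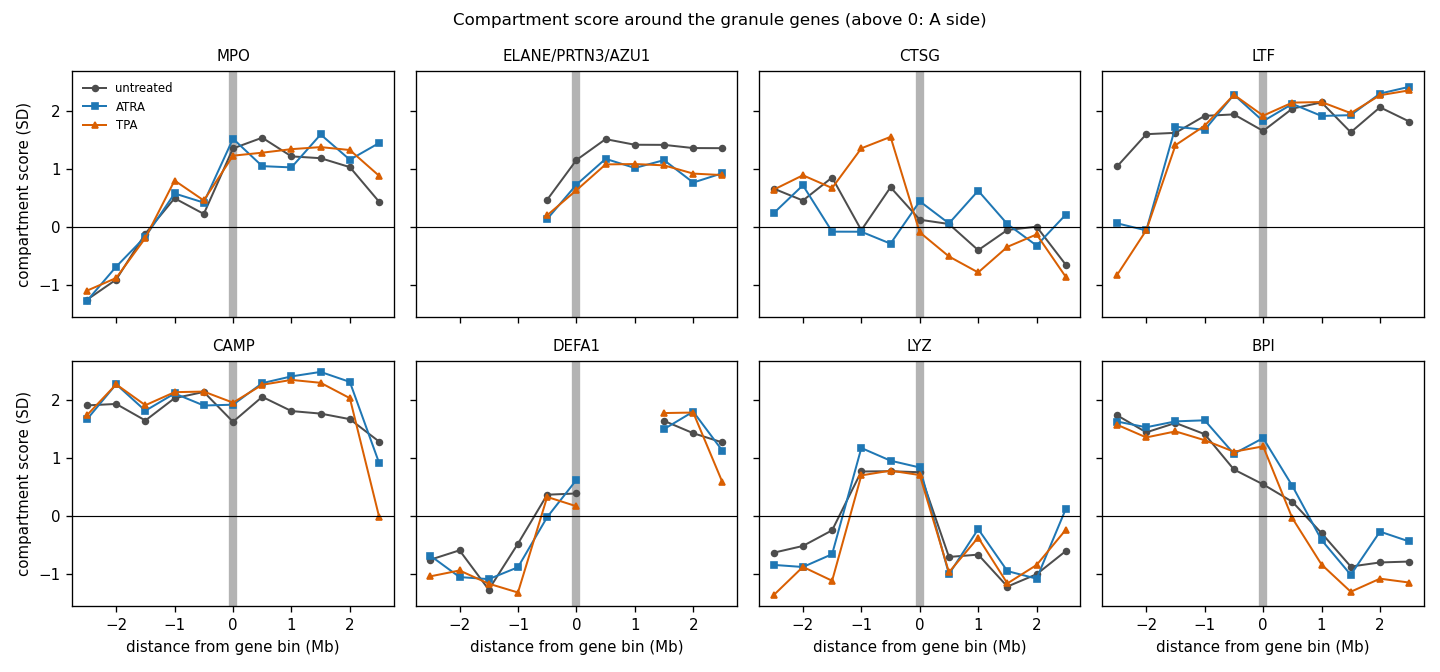
Compartment score in SD of the chromosome against distance in Mb from the granule gene bin (grey bar) for untreated (circles), ATRA (squares) and TPA (triangles) cells, with 1 panel for each of the 8 bins. MPO, DEFA1, LYZ and BPI stand near a border of an A stretch, LTF and CAMP lie inside one, and the gap beside DEFA1 marks 2 bins that were not scored.

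The surroundings of the genes differed in shape more than the gene bins differed between treatments. LTF and CAMP lay inside a broad A stretch, with all 11 bins around each above 1 in untreated cells. At the left edge of the bins described, 2 bins scored lower in both treated matrices. The bin at 44.0 to 44.5 Mb scored 1.04 in untreated, 0.06 in ATRA and -0.83 in TPA cells, and that at 44.5 to 45.0 Mb 1.59, -0.06 and -0.06. At the right edge the bin at 50.5 to 51.0 Mb went from 1.29 to 0.92 and -0.0048. Between these edges the bins from 49.0 to 50.0 Mb were higher in both treatments, such as 1.77, 2.49 and 2.30 at 49.5 to 50.0 Mb. Scores from contacts between chromosomes were lower at both edges too, at -0.10, -0.91 and -0.73 for 44.0 to 44.5 Mb and 1.69, 0.52 and 0.45 for 50.5 to 51.0 Mb, but the rise from 49.0 to 50.0 Mb was absent there, with 3.89, 2.97 and 2.88 at 49.5 to 50.0 Mb.

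MPO lay at the start of an A stretch. The score went from -1.26, -1.28 and -1.10 at 53.5 to 54.0 Mb to 0.22, 0.42 and 0.45 in the bin just before MPO, and stayed above 1 in all matrices over the next 4 bins. The bin at 58.5 to 59.0 Mb was higher in ATRA, at 1.44 against 0.43 in untreated and 0.88 in TPA cells. LYZ lay in the last bin of a short A block of 3 bins, from 68.5 to 70.0 Mb. It was followed by a drop to -0.70, -0.997 and -0.96 at 70.0 to 70.5 Mb. The border beside LYZ thus stood at the same bin in all 3 matrices.

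BPI lay at the end of an A stretch, where scores declined from 1.74, 1.63 and 1.58 at 34.0 to 34.5 Mb to -0.87, -1.01 and -1.30 at 38.0 to 38.5 Mb. All 7 bins around the elastase cluster were on the A side in all matrices and scored lower in both treatments than in untreated cells. The highest untreated score there was 1.51 at 1.0 to 1.5 Mb, against 1.17 in ATRA and 1.07 in TPA. The share of all chromosome 19 bins above 0 was lower in both treatments as well. Of the 5 bins before DEFA1 the outer 4 were on the B side in all matrices, down to -1.26 at 5.0 to 5.5 Mb in untreated cells, and the bin next to DEFA1 was near 0, at 0.37, -0.01 and 0.33. Those beyond the gap, from 8.0 Mb, were on the A side at 1.64, 1.50 and 1.78. The 2 bins in between, at 7.0 to 8.0 Mb, held only 215, 218 and 228 and 72, 69 and 59 contacts. The part of the near-identical defensin gene copies in this low coverage was not tested.

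Contacts with A bins of other chromosomes give a measure that does not use the eigenvector of the gene's own chromosome. It is the share of contacts with A bins among those with A or B bins of other chromosomes, where A and B are the 1828 and 2470 bins beyond 0.5 SD in the sum of the 3 matrices. Over the 8 granule bins the share was 54.7% in untreated (53.9 to 55.5), 51.6% in ATRA (50.7 to 52.4) and 54.0% in TPA cells (53.2 to 54.8). The median of all scored bins was 43.7%, 41.7% and 43.6%, and that of A bins 50.9%, 47.4% and 51.2%.

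In untreated cells the elastase cluster had the highest share, 77.9% (75.6 to 80.0). It was followed by CAMP with 64.7% (61.9 to 67.4) and MPO with 57.2% (55.2 to 59.1), and these intervals do not overlap. BPI with 54.4% (52.6 to 56.2), LTF with 51.7% (48.7 to 54.7) and LYZ with 49.6% (47.1 to 52.1) formed a run in which each overlapped its neighbours. CTSG with 45.9% (43.7 to 48.1) and DEFA1 with 44.9% (42.7 to 47.2) came last, between the medians of the B bins (41.4%) and the A bins. LTF and CAMP thus differed by this measure, although their scores along chromosome 3 were nearly equal.

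The share was lower in ATRA than in untreated cells for 5 of the 8 bins, beside 81.5% of all scored bins and 90.3% of A bins. The difference was -7.46 percentage points for CAMP (Newcombe interval -11.6 to -3.32), -5.84 for the elastase cluster (-9.56 to -2.17) and -4.86 for MPO (-7.61 to -2.10). CAMP, at 64.7% in untreated, 57.2% in ATRA and 59.6% in TPA cells, differed by more than its chromosome, whose median difference was -1.76 points in ATRA and 0.55 in TPA. The elastase cluster, at 77.9%, 72.0% and 76.1%, differed by less than the chromosome 19 median of -7.43 points in ATRA. For MPO the shares were 57.2%, 52.3% and 56.1%, and the chromosome 17 median in ATRA was -3.41 points.

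In TPA the share was lower for 6 of the 8 bins, beside 51.9% of all scored bins, but only the interval of CAMP (-5.10 points, -9.11 to -1.08) excluded 0. LTF, 1.5 Mb away, had 51.7% in untreated, 53.0% in ATRA and 54.6% in TPA cells, and its differences of 1.30 (-3.19 to 5.78) and 2.84 points (-1.53 to 7.19) had the opposite sign. BPI stayed at 54.4%, 54.8% and 54.8% while the median of chromosome 20 was lower by 3.37 points in ATRA and by 2.99 points in TPA. The intervals of CTSG (45.9%, 46.5% and 45.6%), DEFA1 (44.9%, 43.6% and 44.0%) and LYZ (49.6%, 46.7% and 49.2%) included 0 in both comparisons.

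**Figure D3:**
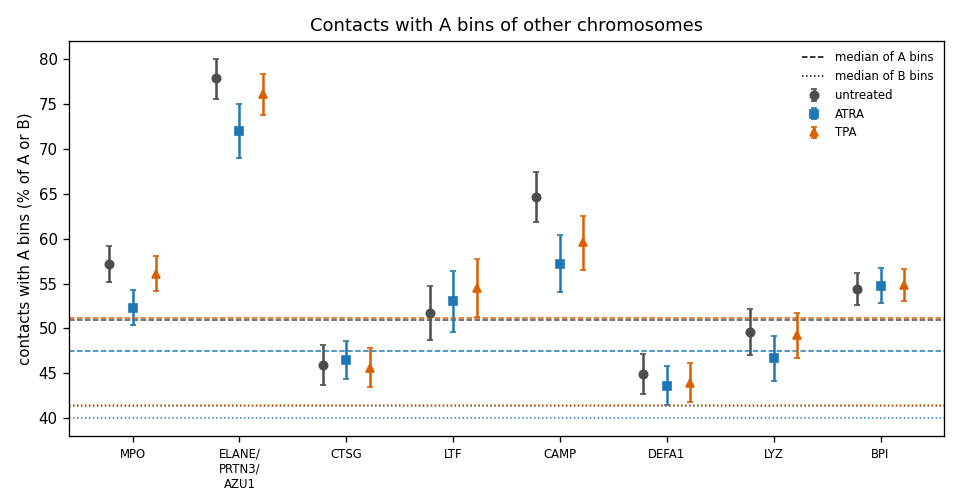
Share of contacts with A bins among contacts with A or B bins of other chromosomes, in percent with exact binomial 95% intervals, for each granule gene bin in untreated (circles), ATRA (squares) and TPA (triangles) cells. Dashed and dotted lines mark the medians of all A and all B bins in each matrix. The elastase cluster and CAMP lie highest, at 77.9% and 64.7% in untreated cells, and CTSG and DEFA1 lowest.

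Contacts within the chromosome made up a smaller share in both treated matrices. Summed over the 8 bins they were 38.5% of contacts in untreated (37.9 to 39.0), 29.7% in ATRA (29.2 to 30.3) and 33.4% in TPA cells (32.9 to 34.0), and all 8 bins were lower in both treatments, beside 99.7% and 77.2% of all scored bins. The median of all scored bins was 35.3%, 28.7% and 33.6%. The difference of the granule bins from untreated was -8.73 points for ATRA (-9.50 to -7.95) and -5.05 for TPA (-5.82 to -4.28), against medians of -6.50 and -1.89 over all scored bins. Contacts inside the gene's own bin were 6.67% of contacts in untreated (6.39 to 6.95), 4.53% in ATRA (4.28 to 4.79) and 4.93% in TPA cells (4.68 to 5.18). No such share over all scored bins is given here, so this difference cannot be called particular to the granule bins.

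MPO had the largest difference in ATRA, from 42.7% within chromosome 17 in untreated to 30.5% in ATRA and 35.2% in TPA cells. The difference was -12.2 points (-14.1 to -10.4) and -7.56 points (-9.40 to -5.71), beside chromosome medians of -6.76 and -5.35. Contacts inside the MPO bin itself went from 9.56% to 5.18% and 6.34%, with no value of chromosome 17 given for comparison. LYZ went from 41.7% to 30.1% and 37.5%, and the elastase cluster from 38.8% to 28.1% and 27.1%. The elastase cluster was the bin with the largest difference in TPA, -11.7 points (-14.3 to -9.13), against -7.33 for its chromosome.

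LTF differed least of the 8 bins, with 42.8%, 38.5% and 42.5% within chromosome 3, and its TPA difference of -0.35 points had an interval of -3.24 to 2.55. CAMP had 42.9%, 35.5% and 39.9%, with differences of -7.39 and -2.97 points against chromosome medians of -6.49 and -1.50. BPI had 39.2%, 33.9% and 33.4%, and DEFA1 39.1%, 31.6% and 37.2%. CTSG was far below the others in every matrix, at 19.5%, 12.2% and 16.6%, and below the medians of chromosome 14, which were 27.9%, 22.04% and 27.0%.

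Of 4 ranges of distance, the nearest had the lowest ratios when summed over the bins. Contacts with bins 0.5 to 1.5 Mb away, per 1000000 contacts of the matrix, were 0.639 times the untreated value in ATRA (0.607 to 0.673) over the 8 bins and 0.710 times (0.676 to 0.745) in TPA, from 4054, 2349 and 2822 contacts in untreated, ATRA and TPA cells. The medians of all scored bins were 0.660 and 0.731. All 8 bins were lower by over 1.2-fold in ATRA, beside 93.3% of all, and 7 of 8 in TPA, beside 81%. The near loss was thus close to that of any bin.

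The elastase cluster had the lowest near ratio, 0.438 in ATRA (0.355 to 0.538), from 330 contacts in untreated to 131 in ATRA and 195 in TPA cells. Relative to all pairs of chromosome 19 at these distances this was 0.821 (0.665 to 1.01). CTSG followed with 0.499 (0.403 to 0.615), from 292 to 132 and 206 contacts, and it was also low relative to chromosome 14, at 0.770 (0.622 to 0.949). It was the only granule bin whose near ratio relative to its chromosome had an interval excluding 1, in either treatment. MPO went from 1011 contacts to 586 and 681, a ratio of 0.640 (0.577 to 0.709) and 0.687 (0.622 to 0.758), and CAMP from 537 to 292 and 364, a ratio of 0.60 (0.518 to 0.693) and 0.691 (0.603 to 0.791).

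The remaining near ratios in ATRA lay between 0.666 for LYZ and 0.720 for BPI. DEFA1 was the bin not lower by over 1.2-fold in TPA, at 0.933 (0.780 to 1.12), from 260 contacts in untreated, 169 in ATRA and 238 in TPA cells. For DEFA1, 2 of the 6 partner bins are the nearly empty ones at 7.0 to 8.0 Mb. The elastase cluster has only 4 partner bins at these distances because it lies beside the chromosome end.

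**Figure D4:**
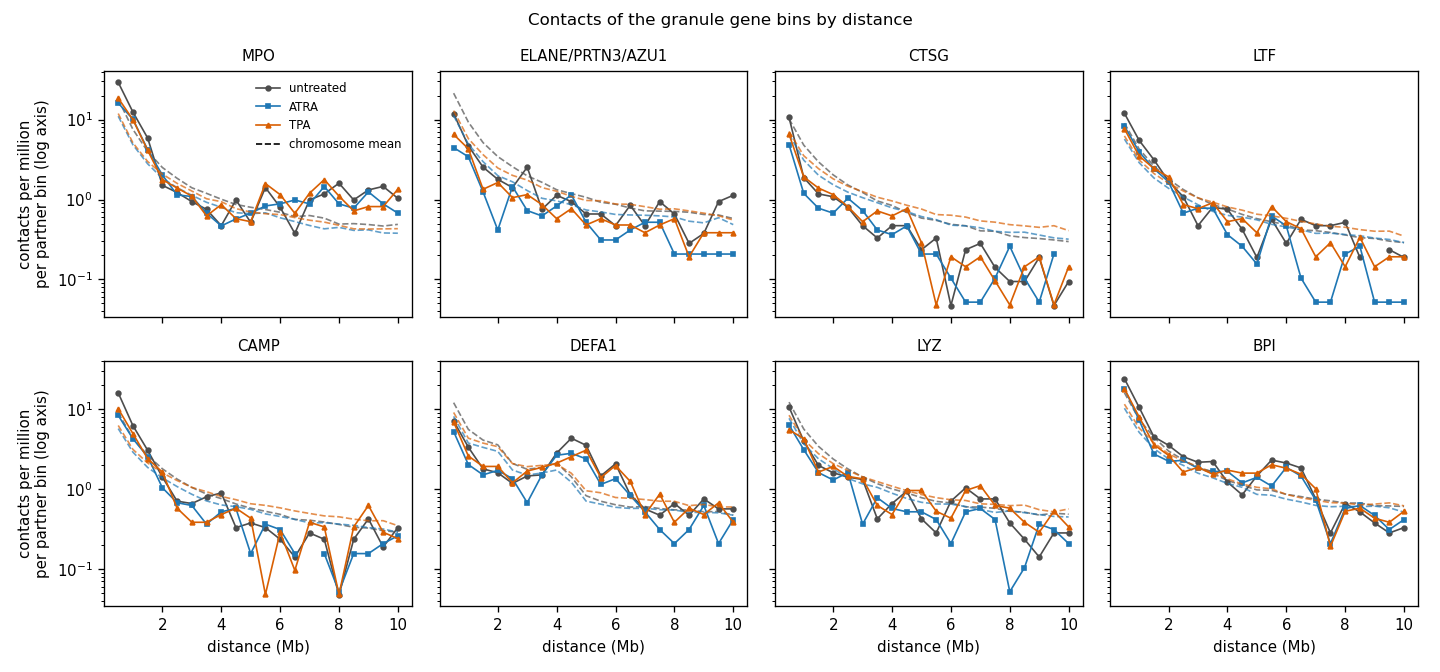
Contacts per 1000000 and per partner bin (log axis) against distance in Mb, from 0.5 to 10 Mb, for each granule gene bin in untreated (circles), ATRA (squares) and TPA (triangles) cells; dashed lines give the mean of all bin pairs of the chromosome. MPO and BPI lie above their chromosome's mean at the nearest distances, CTSG falls below its own beyond 0.5 Mb, and DEFA1 has a second rise near 5 Mb.

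At 2 to 10 Mb the treatments differed from each other. Summed over the bins, contacts in ATRA were 0.802 times (0.752 to 0.855) and in TPA 0.968 times (0.912 to 1.03) those of untreated cells, beside medians of 0.879 and 1.09 over all scored bins. In ATRA 5 of 8 bins were lower by over 1.2-fold, beside 35.6% of all. In TPA 1 of 8 was, beside 6.2%, and this was the elastase cluster at 0.678 (0.529 to 0.865), or 0.752 relative to its chromosome (0.587 to 0.959). DEFA1 was also low relative to its chromosome in TPA, at 0.848 (0.744 to 0.967), and MPO went the other way, at 1.16 (1.01 to 1.35).

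At 10.5 to 50 Mb LTF had more contacts in TPA than in the other matrices. It had 114 contacts in untreated, 87 in ATRA and 196 in TPA cells, and the TPA ratio was 1.75 (1.38 to 2.23), or 1.48 relative to chromosome 3 (1.17 to 1.88). The higher count was found on both sides of LTF, from 78 to 117 contacts before it and from 36 to 79 after it. It was found for both kinds of partner too, from 60 to 99 contacts with A bins and from 25 to 50 with B bins. CAMP went the same way, from 100 contacts to 85 in ATRA and 136 in TPA, with a TPA ratio of 1.39 (1.06 to 1.81), but relative to chromosome 3 its interval includes 1, at 1.17 (0.896 to 1.53). These were the 2 of 8 bins higher by over 1.2-fold in TPA, beside 30.5% of all scored bins.

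All other granule bins but DEFA1 had fewer contacts at this distance in both treated matrices. The elastase cluster went from 254 contacts in untreated to 103 in ATRA and 170 in TPA cells, which was 0.573 (0.451 to 0.723) and 0.675 (0.552 to 0.823) times the change of its chromosome. BPI went from 782 to 492 and 579, at 0.762 (0.679 to 0.854) and 0.775 (0.694 to 0.864) relative to chromosome 20. LYZ went from 540 to 364 and 454, at 0.779 (0.680 to 0.892) and 0.776 (0.684 to 0.881) relative to chromosome 12. CTSG went from 109 to 69 and 95, at 0.680 (0.495 to 0.927) and 0.755 (0.568 to 1.004) relative to chromosome 14. For MPO both intervals relative to chromosome 17 include 1.

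In TPA the lower count of BPI lay on the side before it. There, toward the centromere and the short arm, contacts at 10.5 to 50 Mb went from 516 to 330, a ratio of 0.652 (0.566 to 0.750), and after it from 266 to 249, a ratio of 0.954 (0.80 to 1.14). It also lay with B partners, from 274 to 172 (0.640, 0.526 to 0.777), rather than A partners, from 248 to 271 (1.11, 0.934 to 1.33). In ATRA the numbers were 308 before and 184 after BPI, and both sides were lower, at 0.659 (0.570 to 0.760) and 0.763 (0.629 to 0.925). For LYZ the count with A partners went from 286 in untreated to 168 in ATRA and 213 in TPA cells, with ratios of 0.648 (0.532 to 0.787) and 0.759 (0.633 to 0.910). With B partners it went from 149 to 114 and 131, with ratios of 0.844 (0.656 to 1.08) and 0.896 (0.703 to 1.14), whose intervals overlap those of the A partners.

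Over these distances 5 of the 8 bins were lower by over 1.2-fold in ATRA, beside 16.7% of all scored bins, and 2 of 8 in TPA, beside 6.13%. In ATRA 0 of 8 were higher by that much, beside 9.52%. DEFA1 stayed closest to untreated, with 424, 378 and 446 contacts and ratios of 0.984 (0.854 to 1.13) and 1.07 (0.937 to 1.23).

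Beyond 50 Mb, where BPI has no partner bins, the other 7 bins had 843 contacts in untreated, 615 in ATRA and 813 in TPA cells. The summed ratio was 0.805 in ATRA (0.724 to 0.894), beside a median of 0.996 over all scored bins, whereas the TPA interval (0.892 to 1.08) includes 1. The elastase cluster had its lowest ratio at this distance, 0.270 in ATRA (0.131 to 0.515), but from only 49 contacts in untreated and 12 in ATRA cells, and much of chromosome 19 shared it: relative to its chromosome the value was 0.788 (0.382 to 1.50). For LYZ in ATRA the value relative to chromosome 12 was 0.750 (0.570 to 0.983).

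**Figure D5:**
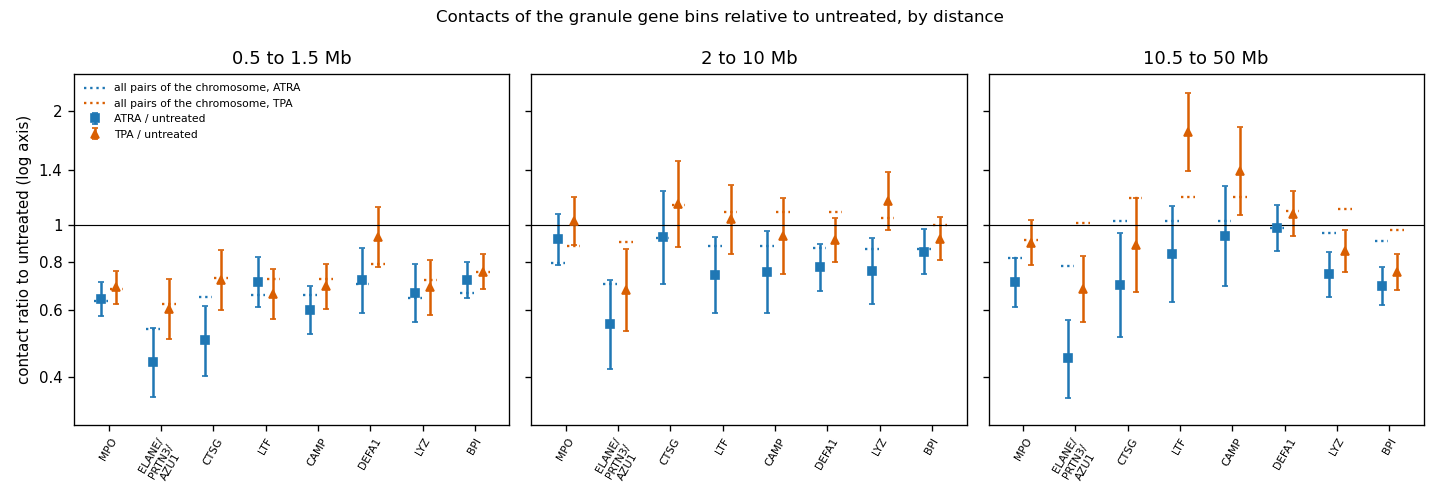
Ratio of contacts per 1000000 to untreated (log axis) for each granule gene bin in ATRA (squares) and TPA (triangles) at 3 ranges of distance, with exact 95% intervals; dotted lines give the same ratio over all bin pairs of the chromosome. All 8 ATRA ratios at 0.5 to 1.5 Mb lie between 0.438 and 0.720, and LTF in TPA stands highest at 10.5 to 50 Mb, at 1.75.

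DEFA1 had a second rise of contacts in all 3 matrices. Summed over the matrices it had 29 contacts with the bin at 8.5 to 9.0 Mb and 28 with the next, and then 42 at 9.5 to 10.0 Mb, 68 at 10.0 to 10.5 Mb, 103 at 10.5 to 11.0 Mb, 123 at 11.0 to 11.5 Mb and 109 at 11.5 to 12.0 Mb. The place of the highest count differed between matrices. The bin at 11.0 to 11.5 Mb had 59 contacts in untreated, 33 in ATRA and 31 in TPA cells, and that at 10.5 to 11.0 Mb 34, 33 and 36. The bin at 11.5 to 12.0 Mb had 44, 26 and 39, which after balancing were 4.698, 4.27 and 3.90 times the mean of chromosome 8 at that distance. No other granule bin had a partner at 2 to 10 Mb among its 3 strongest that was above 3 times the mean in all matrices.

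The share of near contacts on either side followed the borders described above for BPI. Of its contacts with the 5 bins on either side, 71.4% in untreated (68.4 to 74.2), 74.0% in ATRA (70.4 to 77.4) and 78.4% in TPA cells (75.2 to 81.4) were with bins before it, where the A stretch lies. MPO had 57.7%, 60.1% and 57.6% before it, on the side of the border, and LYZ 54.0%, 59.5% and 56.8%. CAMP had 42.3%, 44.6% and 43.2% and LTF 44.2%, 49.7% and 47.7%.

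LTF and CAMP are the only granule bins that share a chromosome. They had 40 contacts with each other in untreated, 27 in ATRA and 24 in TPA cells. This was 1.43 (1.02 to 1.94), 1.50 (0.991 to 2.19) and 1.09 (0.697 to 1.62) times the mean of chromosome 3 at 1.5 Mb, and the intervals overlap. After balancing, which allows for the low coverage of both bins, the pair stood higher, at 2.00, 3.02 and 1.85 times the mean. By raw contacts it stood among the 384 pairs of chromosome 3 at this distance at percentiles 80.5, 82.0 and 65.9.

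Between chromosomes, the granule bins had few contacts with each other. The 27 pairs held 19 contacts in untreated, 13 in ATRA and 24 in TPA cells, or 1.50 (0.902 to 2.34), 1.18 (0.631 to 2.03) and 1.92 (1.23 to 2.86) times the expectation from the coverage of both bins. The intervals overlap, and A bins in general had 1.15, 1.13 and 1.16 times the expectation with each other. The bins around the genes gave 1.11 (1.05 to 1.17), 1.09 (1.03 to 1.16) and 0.977 (0.921 to 1.04).

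The largest excess among the 27 pairs of surroundings on different chromosomes joined the elastase cluster with the secondary granule genes. The expectation came from coverage alone. The elastase cluster and CAMP had the highest shares of contacts with A bins among the granule bins, and equally A-like bins elsewhere were not compared. The bins around the elastase cluster and around CAMP had 66 contacts in untreated, 35 in ATRA and 41 in TPA cells, which was 3.67 (2.84 to 4.67), 3.21 (2.24 to 4.46) and 2.41 (1.73 to 3.27) times the expectation. With the bins around LTF, 8 of which are the same as those of CAMP, the ratios were 2.48 (1.81 to 3.32), 2.60 (1.77 to 3.69) and 2.16 (1.53 to 2.96). The gene bins themselves had 0 contacts with each other in any matrix, but the coverage of a single pair of bins is too low for that count to tell whether they share the excess. The elastase cluster had less contact than expected with the surroundings of DEFA1 in untreated cells, at 0.603 (0.338 to 0.995), while the intervals in ATRA, at 0.763 (0.427 to 1.26), and TPA, at 0.747 (0.456 to 1.15), include 1. With the surroundings of LYZ the values were 0.516 (0.289 to 0.851), 0.833 (0.509 to 1.29) and 0.617 (0.372 to 0.964).

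Partner chromosomes were ranked by their excess in the sum of the matrices. For the elastase cluster chromosome 17 came first, with 168 contacts in untreated, 96 in ATRA and 132 in TPA cells, or 2.90 (2.48 to 3.38), 2.78 (2.25 to 3.39) and 2.25 (1.88 to 2.67) times the expectation, although in ATRA chromosome 22 was higher at 2.99 (2.22 to 3.94). Its strongest single partner was the end of chromosome 16, at 0.5 to 1.0 Mb, with 8, 3 and 8 contacts, 21.6 times the expectation in the sum. MPO had most excess with chromosome 16, at 1.67 (1.44 to 1.92), 1.23 (1.04 to 1.45) and 1.26 (1.07 to 1.48), although in TPA chromosome 5 stood as high at 1.29 (1.13 to 1.47). BPI had most excess with chromosome 22, at 1.65 (1.36 to 1.97), 1.80 (1.46 to 2.20) and 1.47 (1.2 to 1.78). DEFA1 and LYZ had no partner chromosome above 1.2 times the expectation in the sum of the matrices.

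LTF and CAMP both had chromosome 14 as first partner. LTF had 93, 56 and 99 contacts with it, 1.97 (1.59 to 2.42), 1.51 (1.14 to 1.96) and 2.39 (1.94 to 2.91) times the expectation, and CAMP 96, 97 and 92, or 1.84 (1.49 to 2.25), 2.30 (1.87 to 2.81) and 2.02 (1.63 to 2.48) times. CTSG lies on chromosome 14, but the bins around it had no such excess with those around LTF or CAMP, with ratios between 0.770 and 1.34 whose intervals all include 1. Chromosome 3 was also joined to chromosome 14 at another place, 186.5 to 196.0 Mb, as described below. The part of this join in the excess of LTF and CAMP was not tested, and no value for chromosome 3 as a whole is given.

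More joins to other chromosomes were found around CTSG than around any other granule bin. Pairs of bins with at least 20 contacts in the sum of the matrices and at least 10 times the expectation were found around CTSG and around the elastase cluster only. Around CTSG there were 25 such pairs with chromosome 3, between 186.5 and 196.0 Mb, and 21 with chromosome 21, between 35.0 and 45.5 Mb. The pair with the most contacts linked the bin before CTSG, 24.5 to 25.0 Mb, to the bin at 190.0 to 190.5 Mb of chromosome 3, with 61 contacts in untreated, 30 in ATRA and 39 in TPA cells, 44.8 times the expectation. The CTSG bin itself had 36, 22 and 26 contacts with the same place on chromosome 3, 45.6 times the expectation.

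Of all contacts of the CTSG bin, 12.1% in untreated, 10.8% in ATRA and 12.8% in TPA cells were with chromosome 3, and 4.06%, 3.14% and 3.30% with chromosome 21. The joined places were present in all 3 matrices, treated or not. Their part in the low share of contacts within chromosome 14, and in the unsettled compartment score of CTSG, was not tested. Around the elastase cluster there were 2 such pairs. The end bin of chromosome 19 and that at 140.5 to 141.0 Mb of chromosome 9 had 12 contacts in untreated, 1 in ATRA and 9 in TPA cells, and the bin at 1.5 to 2.0 Mb, linked to that at 40.5 to 41.0 Mb of chromosome 17, had 10, 4 and 7.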

How the data were processed

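The labels' protocols describe HindIII digestion of fixed HL60 chromatin and ligation in solution. The design text of the series names Bowtie for alignment, HiCUP for filtering and HOMER for the interaction analysis; the submitters' processing notes give HOMER 4.7 and the build hg19. The authors deposited 3 matrices of raw contact counts between 500 kb bins, with whole numbers and no normalization, per the file headers and the values. No filter settings are given in the sources used here.

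Counts on the diagonal were divided by 2, and bins of chromosomes Y and M were left out. For compartment scores, each matrix was balanced in 60 iterations and the eigenvector of each chromosome was taken (the next one if it tracked the chromosome arms with a correlation over 0.7). Contact with chromosome 19 in the sum of the matrices, or with 17 and 22 for chromosome 19, set the sign. Coverage, shares and contacts by distance used raw counts. Intervals were exact Poisson for counts, exact binomial (Clopper-Pearson) for shares, conditional binomial for ratios and Newcombe for differences of shares. Limits of 1.2-fold and 0.5 SD stand in for a test, since each condition is 1 matrix. Python 3.11.15, NumPy 2.4.6 and SciPy 1.17.1 were used, and the steps were tested on simulated data. All 10 genes are named in the text by rule, with the strongest joined pairs. Of the bins around them, only some of those whose score changed are named, and not all lowest and highest scores are given. Around CTSG, scores are given for the bin before it only. Other granule genes were not analysed here, because no hg19 annotation was used. Gene neighbours are from RefSeq on GRCh38.p14. The genes, lists and limits were chosen with earlier results of these data known. No sequence is shown, since 500 kb bins do not resolve one.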

Additional observations from a re-analysis of the deposited data

How the results depend on the processing

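Of 79 results under an alternative, 41 stayed close to the value reported and 38 moved, where close means a count of bins within 1.5 times the reported count, or a share or ratio inside its reported 95% interval. The number of granule bins on the A side in untreated and ATRA cells was 5 and 5 both without balancing and by contacts between chromosomes. Bins lower in score numbered 2 in ATRA and 5 in TPA without balancing, and 2 and 2 between chromosomes, where 0 were higher in TPA; per chromosome arm 0 were higher or lower in TPA. With bins under 0.5 times the median coverage left out the elastase cluster was not scored and 0 were lower in TPA, and at a limit of 1 SD 0 were higher in ATRA and 0 in TPA changed. With chromosome 14 scored by its eigenvector closest to contacts between chromosomes, chosen after seeing the data, 1 was lower in ATRA.

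From contacts with other chromosomes, scaled to their own total, the summed coverage ratio in ATRA and TPA was 0.924 and 0.981. The TPA interval includes 1 (0.961 to 1.00). Scaled to the median bin the summed ratios were 0.870 and 0.926. With contacts inside the bin left out, the share within the chromosome was 34.1% in untreated, 26.4% in ATRA and 30.0% in TPA cells. The ratio at 0.5 to 1.5 Mb was 0.789 and 0.762 scaled to contacts within chromosomes, 0.590 and 0.656 for adjacent bins, and 0.789 and 0.777 after balancing, so the order of ATRA and TPA turned in 2 of these 3. The share of contacts with A bins was 52.8%, 49.7% and 52.2% with sides by sign, 56.3%, 53.1% and 55.7% without chromosomes 14 and 21, and 56.0%, 52.8% and 55.6% without chromosomes 14, 16, 18 and 21, the last chosen after seeing the data. The causes were not tested. No paired analysis was possible because the libraries of each condition are merged into 1 matrix, and no library was left out for the same reason. Single bin pairs hold few contacts at this depth, and only sums over many pairs are precise.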
